A study of Mus musculus with 54 samples.

Results

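The 29 Hox genes described here were all the rows of a mouse prostate expression table whose symbol starts with Hoxa, Hoxb or Hoxc, out of 16772 rows. Names alone decided which rows belong, but the set was chosen with earlier results of these data known. There were 13 rows of the Hoxa cluster (chromosome 6, 52155590 to 52260880, GRCm38), 10 of the Hoxb cluster (chromosome 11, 96194316 to 96354012) and 6 of the Hoxc cluster (chromosome 15, 102966796 to 103036852). Of these, 26 encode proteins, and Hoxa11os, Hoxaas3 and Hoxb5os are transcripts from the strand opposite to the coding genes. Hoxb1, Hoxc11, Hoxc12, Hoxc13, Hoxaas2 and Hoxb3os of the same clusters were not analysed here.

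Hox genes encode homeodomain transcription factors that give cells their position along the body axis. Genes lie in each cluster in the order of that axis, and genes with the same number in different clusters, called paralogues, descend from one ancestral gene. The paralogues with the highest numbers pattern the hind end of the trunk and the urogenital tract, where Hoxa10, Hoxa11, Hoxa13 and Hoxb13 take part in forming the genital ducts and the prostate. The clusters are classical targets of Polycomb repressive complex 2, whose enzyme Ezh2 methylates histone H3 on lysine 27 at silent genes.

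RNA came from prostate tumour tissue of 48 mice (54 libraries) of engineered strains, and the series compared DKO mice with DKO mice that also carry an Ezh2 deletion, DKO_EE or DKO_EP. Intact mice were sampled at 12 weeks of age (DKO, DKO_EE and DKO_EP, 4 animals each) and at endstage (3 DKO at 35 to 46 weeks, 8 DKO_EE at 28 to 42 weeks and 3 DKO_EP at 39 to 52 weeks). A further set, castrated at 12 weeks and kept until endstage, comprised several ages (4 DKO at 39 to 99 weeks, 5 DKO_EE at 35 to 59 weeks and 5 DKO_EP at 34 to 37 weeks). Castrated TKO mice received vehicle (4 animals, 15 to 19 weeks) or the Ezh2 inhibitor CPI1688 (4 animals, 18 to 19 weeks). Which genes the letters DKO and TKO stand for, which Ezh2 alleles DKO_EE and DKO_EP carry and which promoter drove the deletion are not given in the sources used here. Nor is the dose or length of the CPI1688 treatment. Libraries ranged from 3687048 to 9741808 reads.

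Values are log2 of a normalized count plus 1, called log2 levels below, with one value per animal, and a fold change is a difference on that scale, which understates changes of genes with few reads. Levels of different genes are compared only as normalized counts per kilobase of exon. Differences were tested with limma across all genes and called at a Benjamini-Hochberg adjusted p under 0.05. Counts at an unadjusted p under 0.05 are given without the share of all genes, except for CPI1688. They are not read as results, and the CPI1688 count cannot be ranked against the counts of the other comparisons. Labels and tissue were checked first. Ezh2 was at 7.33 to 7.79 in the 12-week DKO_EE animals and 8.19 to 8.69 in DKO, and at 7.41 to 8.76 in intact endstage DKO_EE against 9.47 to 9.88 in DKO (log2 fold change -1.34, SE 0.26, adjusted p = 0.0194). In DKO_EP it differed from DKO by -0.22 at intact endstage (SE 0.31, adjusted p = 0.999). The summed luminal epithelium markers were at 12.63 to 15.91 in log2 over all 48 animals, with Krt8 and Epcam read in each of them, while the secretory marker Pbsn was at 0 in all intact endstage animals.

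Some animals stood apart from their groups. Castrated DKO replicate 2, aged 99 weeks, had a summed neuroendocrine level of 8.69 against 14.35 to 14.68 in the other castrated DKO animals, and a basal epithelium level of 16.03 against 12.36 to 12.63. TKO vehicle replicate 1 had a neuroendocrine level of 10.79 against 14.84 to 15.10 in the rest of its group. At 12 weeks, Ttn, the titin gene of skeletal muscle, took over 1% of the reads in DKO replicates 1 and 4 and DKO_EP replicates 2 and 4, and at most 0.183% in the other 12-week animals. Lars2, a mitochondrial tRNA synthetase gene, exceeded 10% of reads at intact endstage in 5 of 12 libraries from DKO_EE and in 5 of 5 from DKO_EP. In bulk tissue, fewer cells of a type and less RNA per cell cannot be told apart.

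At 12 weeks the prostates carried the end genes of the Hoxa cluster, Hoxb13 and the Hoxb genes, and little Hoxc RNA. Per kilobase, Hoxb13 and Hoxa10 held the first and second places in all 3 genotypes, at 191 and 131 normalized counts per kilobase in DKO, 131 and 166 in DKO_EE, where their order was the opposite, and 193 and 121 in DKO_EP. Next came Hoxb9 at 76.7 in DKO and 79.3 in DKO_EP, and Hoxa11os at 80 in DKO_EE. Summed over an animal, the Hoxa rows held 890 to 1798 reads, the Hoxb rows 671 to 1665 and the Hoxc rows 1 to 125. The mean log2 levels over Hoxa10, Hoxa11 and Hoxa13 were 7.65 ± 0.19 (DKO), 7.81 ± 0.22 (DKO_EE) and 7.52 ± 0.24 (DKO_EP), as SD over 4 animals.

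**Figure D1:**
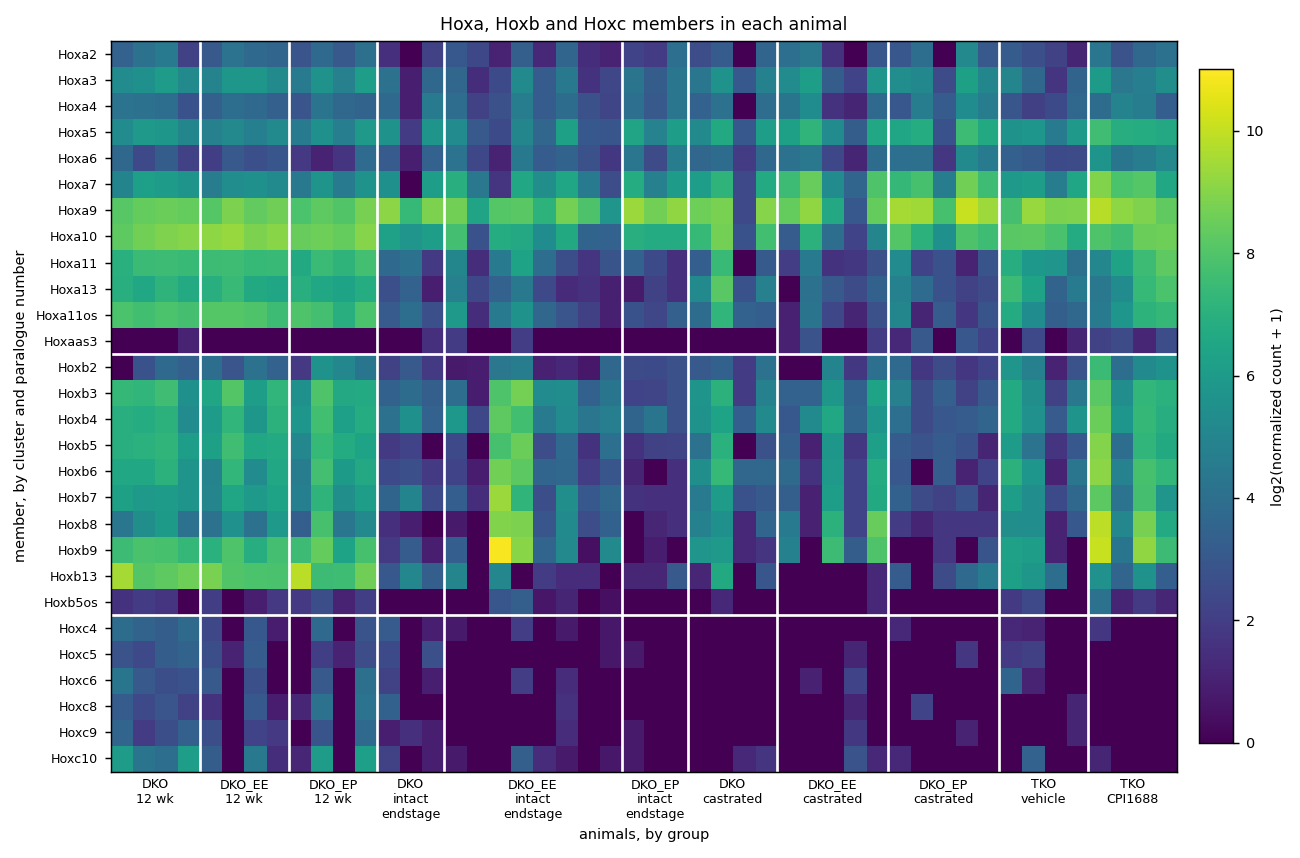
Heat map of the log2 level of 28 of the genes (vertical axis, by cluster and paralogue number, transcripts of the opposite strand last) in the 48 animals (horizontal axis, grouped, replicates in number order); white lines separate groups and clusters. The rows from Hoxa10 to Hoxa11os and Hoxb13 are bright in all 12-week animals and darker in the intact endstage animals, the Hoxb rows vary as a block among the later animals, and the Hoxc rows are near 0 in them.

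Between 12 weeks and intact endstage the comparison described how the prostates changed as tumours advanced. In DKO, 16 of the 29 genes fell and none rose, where limma called 36.7% of all genes in either direction and 18.7% lower. The median log2 fold change of the 29 was -2.24, and -0.04 over all genes. By cluster, 6 of 13 Hoxa, 6 of 10 Hoxb and 4 of 6 Hoxc genes fell. By paralogue number, 4 of 8 genes numbered 1 to 4, 4 of 10 numbered 5 to 8 and 7 of 8 numbered 9 to 13 fell. Without intact endstage replicate 3 the count was 9.

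The count in DKO_EE was 10 lower and none higher, with 6 Hoxa, 2 Hoxb and 2 Hoxc genes, where 50.6% of all genes were called and 27% lower. The median of the 29 was -1.44, and -0.07 over all genes. In DKO_EP 14 were lower and none higher, with 3 Hoxa, 9 Hoxb and 2 Hoxc genes, where 44.2% of all genes were called and 22.9% lower. Here the median was -1.78, and -0.06 over all genes. Genes numbered 9 to 13 fell in 5 of 8 cases in DKO_EE and in 5 of 8 in DKO_EP. Of the 10 genes numbered 5 to 8, Hoxb5 and Hoxc5 fell in DKO_EE. In DKO_EP, Hoxb5, Hoxb6, Hoxb7, Hoxb8 and Hoxc8 of these fell. Genes numbered 1 to 4 that fell included Hoxa3 in DKO_EE and Hoxb3 and Hoxb4 in DKO_EP. The fall was thus not confined to genes numbered 9 to 13. Hoxa11, Hoxa11os, Hoxa13, Hoxb5 and Hoxb13 fell in all 3 genotypes, 8 others in 2 genotypes, 9 in 1 genotype and 7 in none. The Hoxb5 call was lost in 9 of 21 alternatives in DKO_EE (adjusted p up to 0.091) and in 1 of 15 in DKO_EP. Hoxb8 was called in DKO and DKO_EP, and lost in 9 and 8 of 14 alternatives. A test of the difference in this change between DKO_EE and DKO called none of the 29, with 0.125% of all genes called, and none of the 29 had an unadjusted p under 0.05.

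Several cell type lists moved over the same interval. Summed smooth muscle markers ranged from 11.82 to 14.81 in the 12-week animals and from 9.21 to 12.75 at intact endstage, and neuroendocrine markers from 7.37 to 11.73 and then from 14.20 to 15.08, with no gene of either list at 0 in a whole group. In the same order, the luminal sum was at 15.18 to 15.91 and 14.17 to 15.01, with Pbsn at 0 at endstage, and the basal sum at 12.60 to 14.46 and 11.14 to 13.29. Endothelial sums were at 10 to 11.84 and 11.69 to 13.87, erythroid sums at 9.37 to 10.61 and 10.96 to 12, with Hba-a1 and Hbb-bt at 0 in all these groups, and T and NK cell sums at 6.82 to 8.56 and 4.36 to 7.25, with Prf1 at 0 in intact endstage DKO_EP. Seminal vesicle sums were at 2.64 to 19.41 and then at 2.12 to 8.2, with Defb2 at 0 in all 3 endstage groups, and skeletal muscle sums at 7.35 to 18.22 and then at 7.62 to 10.98, with Pvalb at 0 in all 3. The part of these cell types in the fall of the Hox genes was not tested.

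Hoxb13 encodes the Hox factor typical of the adult prostate, a partner of the androgen receptor. At 12 weeks its log2 levels were 9.53, 8.06, 8.27 and 8.56 in DKO, 8.78, 8, 7.89 and 7.85 in DKO_EE and 9.88, 7.56, 7.57 and 8.60 in DKO_EP. At intact endstage they were 3.02, 5.09 and 3.31 in DKO and 1.19, 1.20 and 3.09 in DKO_EP, and in the 8 DKO_EE animals they ran from 0 through a median of 1.41 to 5.08. All intact endstage animals were below all 12-week animals of their genotype. The log2 fold changes were -4.80 in DKO (SE 1.28, adjusted p = 0.00297), -6.27 in DKO_EE (SE 1.02, adjusted p = 5.29e-06) and -6.58 in DKO_EP (SE 1.28, adjusted p = 8.29e-05).

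Hoxa13 patterns the digits and the lower urogenital tract. It stood at 6.95, 6.61, 7.14 and 6.71 in the 12-week DKO animals and at 2.67, 3.47 and 0.92 in the DKO endstage animals. In DKO_EP it went from 6.95, 6.55, 6.39 and 6.81 to 0.78, 2.14 and 1.52, and in DKO_EE from 6.93, 7.42, 6.68 and 6.49 to a median of 2.39 (0.96 to 4.80). Again no intact endstage animal reached the 12-week range of its genotype. The fold changes were -4.50 (SE 1.01, adjusted p = 0.00056) in DKO, -4.21 (SE 0.81, adjusted p = 5.17e-05) in DKO_EE and -5.19 (SE 1.01, adjusted p = 8.32e-05) in DKO_EP.

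Hoxa11, a factor of limb, kidney and genital duct development, fell by 4.12 in DKO, by 3.91 in DKO_EE and by 4.77 in DKO_EP (SE 1.09, 0.88 and 1.09). The transcript of its opposite strand, Hoxa11os, fell by 4.54, 4.54 and 4.80 (SE 1, 0.80 and 1). Both were above 6.6 in every 12-week animal, with Hoxa11 at 6.68 to 7.71 and Hoxa11os at 6.89 to 8.12. The genes overlap over 1418 bases, and since the sources used here do not say whether strand was used in counting, their reads cannot be told apart there. Beyond the end of the cluster, Hottip, a noncoding RNA that acts on the neighbouring Hoxa genes, fell as well, by 4.23, 4.80 and 4.86 (adjusted p = 3.22e-05, 7.04e-08 and 3.76e-06).

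Hoxa9, known as a driver of leukaemias and next to Hoxa10 in the cluster, was different. Its log2 levels at 12 weeks were 8.14, 8.40, 8.53 and 8.39 in DKO, and at intact endstage 9.09, 7.38 and 8.82. In DKO_EP they were 7.90, 8.27, 8.01 and 8.75, then 9.35, 8.65 and 9.18. In DKO_EE they were 8.08, 8.83, 8.36 and 8.61, then a median of 8.02 (5.73 to 8.69). The ranges of age groups overlapped in each genotype, and the fold changes of 0.06 (SE 1.02), -0.87 (SE 0.82) and 0.83 (SE 1.02) did not pass (adjusted p = 0.975, 0.385 and 0.536). Hoxa9 therefore held the first place per kilobase in the endstage tumours of DKO at 69.2 normalized counts per kilobase and of DKO_EP at 97.4.

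Hoxa10, a factor of uterus and prostate development that lies between them, was at 8.29 to 9.02 in DKO at 12 weeks and at 6.31, 5.73 and 6.13 at endstage. Its fold changes were -2.66 in DKO (SE 0.99, adjusted p = 0.0317, lost in 6 of 15 alternatives), -3.70 in DKO_EE (SE 0.79, adjusted p = 0.000206) and, not past the test, -1.78 in DKO_EP (adjusted p = 0.14). On the other side of Hoxa9, Hoxa4, Hoxa5, Hoxa6 and Hoxa7 passed in no genotype. Of the genes at the front of the cluster, Hoxa3, a factor of thymus and parathyroid development, fell in DKO by 2.61 and in DKO_EE by 2.42. Hoxa2, a hindbrain factor, was called in DKO at -2.33, a call lost in 7 of 14 alternatives (adjusted p up to 0.221). Hoxa3 spans Hoxa4, Hoxa5 and Hoxa6 in the annotation, so their counts are uncertain where they share sequence.

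Promoter sequences are shown for the genes on both sides of this step in the Hoxa cluster and for Hoxb8, a Hoxb gene described below. RefSeq's table for GRCm38.p6 gave 300 bases around the start, most of them upstream, for 13 of the 29 genes. Each is printed 5′ to 3′ in the direction of its gene, with every CG pair in capitals, since dense CG pairs mark the islands on which Polycomb complexes gather.
Hoxa9: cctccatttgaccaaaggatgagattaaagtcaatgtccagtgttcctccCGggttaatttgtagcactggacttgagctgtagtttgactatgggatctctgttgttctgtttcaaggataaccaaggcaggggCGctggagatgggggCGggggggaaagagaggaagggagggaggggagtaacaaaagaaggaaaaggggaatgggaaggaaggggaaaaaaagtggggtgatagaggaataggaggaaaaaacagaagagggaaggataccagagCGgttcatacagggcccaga
Hoxa10: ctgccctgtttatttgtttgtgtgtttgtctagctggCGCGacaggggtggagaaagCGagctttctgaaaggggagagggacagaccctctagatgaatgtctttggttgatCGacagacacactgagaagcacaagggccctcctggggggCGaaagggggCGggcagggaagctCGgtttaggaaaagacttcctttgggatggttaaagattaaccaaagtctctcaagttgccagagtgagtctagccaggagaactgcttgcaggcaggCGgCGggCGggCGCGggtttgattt
Hoxa11: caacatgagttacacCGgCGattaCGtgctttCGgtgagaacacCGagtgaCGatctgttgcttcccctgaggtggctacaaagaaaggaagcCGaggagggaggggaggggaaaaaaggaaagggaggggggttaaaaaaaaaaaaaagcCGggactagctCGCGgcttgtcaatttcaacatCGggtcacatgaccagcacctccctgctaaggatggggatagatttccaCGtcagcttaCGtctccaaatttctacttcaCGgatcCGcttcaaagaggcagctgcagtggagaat
Hoxa13: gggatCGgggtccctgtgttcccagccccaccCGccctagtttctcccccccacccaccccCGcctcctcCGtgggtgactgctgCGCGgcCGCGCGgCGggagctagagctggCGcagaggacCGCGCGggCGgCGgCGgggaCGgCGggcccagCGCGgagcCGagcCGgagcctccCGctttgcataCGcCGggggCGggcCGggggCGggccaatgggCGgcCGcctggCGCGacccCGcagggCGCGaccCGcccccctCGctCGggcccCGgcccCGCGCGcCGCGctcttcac
Hoxb8: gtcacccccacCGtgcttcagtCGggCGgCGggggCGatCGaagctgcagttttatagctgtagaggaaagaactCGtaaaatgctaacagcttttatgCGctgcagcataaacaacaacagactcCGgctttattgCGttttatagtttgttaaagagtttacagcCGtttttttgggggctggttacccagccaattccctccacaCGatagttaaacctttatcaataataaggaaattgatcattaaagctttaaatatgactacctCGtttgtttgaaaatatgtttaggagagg

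These lie at chr6:52227321-52227620, chr6:52240805-52241104, chr6:52245761-52246060 and chr6:52260831-52261130 on the minus strand, and at chr11:96281655-96281954 on the plus strand. The Hoxa9 start used by RefSeq is 3719 bases from the outer start of the gene in the GENCODE annotation, and the other 4 are at that start. The Hoxa9 window held 4 CG pairs, Hoxa10 12, Hoxa11 15 and Hoxa13 45, and Hoxb8 13. The windows of Hoxa5, Hoxa6 and Hoxa7, which passed in no genotype and are not printed, held 29, 26 and 9. The RefSeq start used for Hoxa7 was 3281 bases from the outer GENCODE start. For Hoxc4, also with 9 CG pairs, it was 15461 bases away. Both windows are included in the counts that follow. Over the 13 genes the number ran from 4 to 45 with a median of 14, and 6 of 13 had at least 15, against a median of 7 and 34.9% of 32544 promoters in the table. Searched on both strands, TATAAA was in 2 of 13 windows (Hoxa11os and Hoxb8) against 13.6% of all promoters, and CCAAT in 6 of 13 against 37.4%. AGAACA, the core of a steroid receptor element, was in 2 of 13 (Hoxa9 and Hoxa11) against 18.9%, and TTTATGG was in 0 of 13 against 2.8%. None of the 4 motifs contains another, and the counts are descriptions of the windows only.

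**Figure D2:**
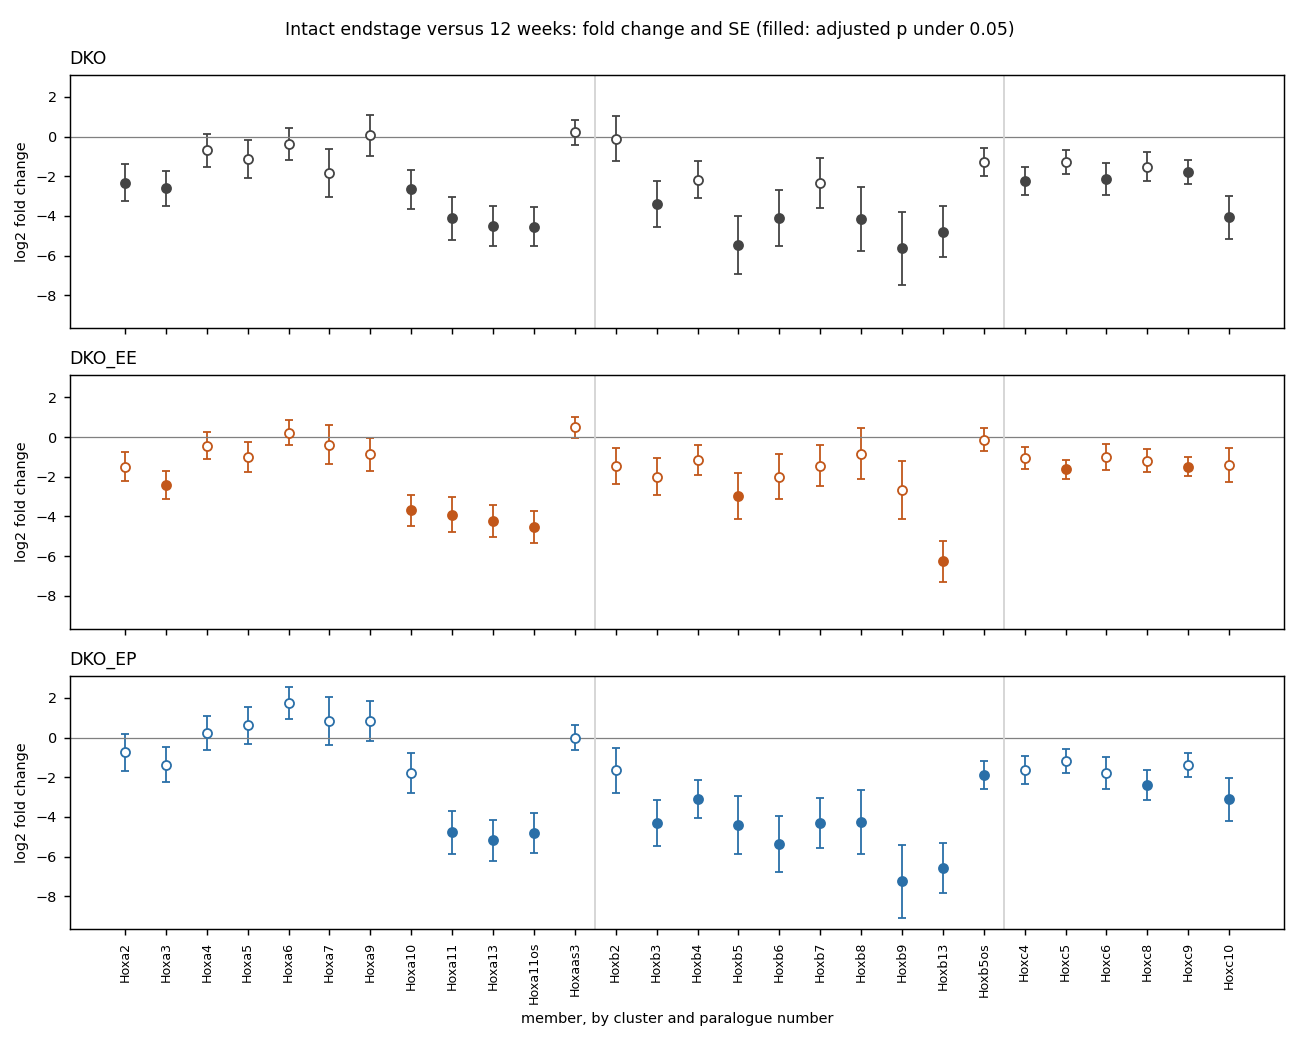
Log2 fold change from 12 weeks to intact endstage (vertical axis) of 28 of the genes (horizontal axis, by cluster and paralogue number) in DKO, DKO_EE and DKO_EP; bars are standard errors, filled points passed at an adjusted p under 0.05, and grey lines separate the clusters. From Hoxa9 near 0 to Hoxa13 between -4.21 and -5.19 the Hoxa points step downwards in all 3 panels, and 9 of 10 Hoxb points are filled in DKO_EP.

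The Hoxb genes had their highest count of calls in DKO_EP, where 9 of 10 passed. Whether the change in DKO_EP differed from that in the other genotypes was not tested. The intact endstage DKO_EP libraries had 14.225% to 21.551% of reads in Lars2, against 0.002% at 12 weeks. They had 4027297 to 5129603 reads, against 6271364 to 8729774 at 12 weeks. The part of these differences in the calls was not tested. Hoxb9, a trunk patterning factor, was at 7.53, 8.38, 6.37 and 7.78 in the 12-week DKO_EP animals and at 0, 0.82 and 0 at intact endstage, a fold change of -7.24 (SE 1.84, adjusted p = 0.00158). In DKO it went from 7.55, 7.83, 7.78 and 7.32 to 1.88, 3.21 and 0.92 (-5.62, SE 1.84, adjusted p = 0.0146). In DKO_EE it went from 7.02, 7.98, 6.84 and 7.73 to values from 0 to 10.88 with a median of 4.38 (-2.68, SE 1.47, adjusted p = 0.126), so that some DKO_EE tumours were far below and 2 were above every 12-week animal. Hoxb6, another trunk factor, changed by -4.12 in DKO (adjusted p = 0.02), -2 in DKO_EE (adjusted p = 0.139) and -5.36 in DKO_EP (adjusted p = 0.00232). Hoxb5, a factor of the gut nervous system and the shoulder, fell by 5.46, 2.95 and 4.42 in the same order. Hoxb5os overlaps Hoxb5 and Hoxb6, had at most 3.31 at intact endstage and was at 0 in all intact DKO and DKO_EP endstage animals. Its call in DKO_EP was lost in 8 of 14 alternatives.

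The genes from Hoxb2 to Hoxb9 moved together among tumours. At 12 weeks their mean log2 level was 5.98 ± 0.52 (DKO), 6.02 ± 0.57 (DKO_EE) and 6.09 ± 1.09 (DKO_EP), as SD over 4 animals. At intact endstage it was 2.55 ± 0.79 in DKO (SD, n = 3) and 1.76 ± 0.16 in DKO_EP (SD, n = 3), and in the 8 DKO_EE animals it ran from 0.80 through a median of 3.63 to 8.27. Castrated endstage tumours ran from 2.02 to 6.10 in DKO, 1.66 to 6.54 in DKO_EE and 1.68 to 3.01 in DKO_EP. Both DKO_EP endstage groups thus lay below every 12-week DKO_EP animal, the lowest of which was at 4.81, while of the 8 intact endstage DKO_EE animals 6 were below and 2 above the 12-week DKO_EE range of 5.48 to 6.64.

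Around the group means of the 36 endstage and TKO animals, the 28 pairs of genes within Hoxb2 to Hoxb9 had a median Pearson r of 0.86 (0.74 to 0.93). The 3 pairs within Hoxa10, Hoxa11 and Hoxa13 had a median of 0.72 (0.60 to 0.79). Between Hoxa10, Hoxa11 and Hoxa13 and the genes Hoxb2 to Hoxb9 the median over 24 pairs was 0.39 (0.17 to 0.61). The 18 pairs of paralogues in different clusters, such as Hoxa9 and Hoxb9, had a median of 0.15 (-0.23 to 0.47). Hoxb13, which lies far from its neighbours in the cluster, had a median of 0.41 with Hoxb2 to Hoxb9 and 0.47 with Hoxa10, Hoxa11 and Hoxa13. These are descriptions across animals, whose values for all genes share one library, its depth and its scaling.

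For 6 intact endstage animals 2 pieces were sequenced, named AP, DP or LP in the titles, and the Hoxb block differed between pieces of one animal. In DKO_EE replicate 5, Hoxb9 was at 7.18 in the AP piece and at 0 in the DP piece. In replicate 6 it was at 1.01 in AP and at 9.33 in DP, and in replicate 8 at 1.44 in AP and at 9.07 in the piece named DP-LP. The mean of Hoxb2 to Hoxb9 followed, at 5.24 and 1.30, 2.30 and 6.51, and 1.41 and 6.6. The higher piece was AP in replicate 5, DP in replicate 6 and DP-LP in replicate 8, so it had no common position. In replicate 7 Hoxb9 was at 0.91 in DP and 0 in LP, and the mean was 1.16 in DP and 3.37 in LP. In DKO_EP replicates 1 and 2 both pieces were low, at 1.22 and 1.93, and at 1.44 and 2.24.

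Neuroendocrine sums in the pieces of those 3 DKO_EE animals were close, at 14.54 and 14.81, 14.79 and 14.88, and 15.10 and 15.28, and fibroblast sums were at 12.90 to 13.74. Smooth muscle sums were higher in the piece with more Hoxb RNA in all 3, at 10.72 against 9.86, 10.37 against 10.13 and 11.05 against 9.64, and their part was not tested. The share of reads in Lars2 was 14.897% in the higher and 18.718% in the lower Hoxb piece of replicate 5, 18.734% and 0.534% in replicate 6, and 0.009% and 18.955% in replicate 8, and its part in the difference was not tested. The averaged values of these animals, such as Hoxb9 at 5.25 in replicate 8, therefore stand for a high and a low piece. Within animals, AP against DP pieces (5 animals) called none of 28 genes tested by limma or limma-voom, where 0% of all genes were called, and 1 had an unadjusted p under 0.05. Hoxb13 was at 0 in at least one piece of all 5 animals, and its AP minus DP difference was 1.35 (SE 0.92, adjusted p = 0.999).

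**Figure D3:**
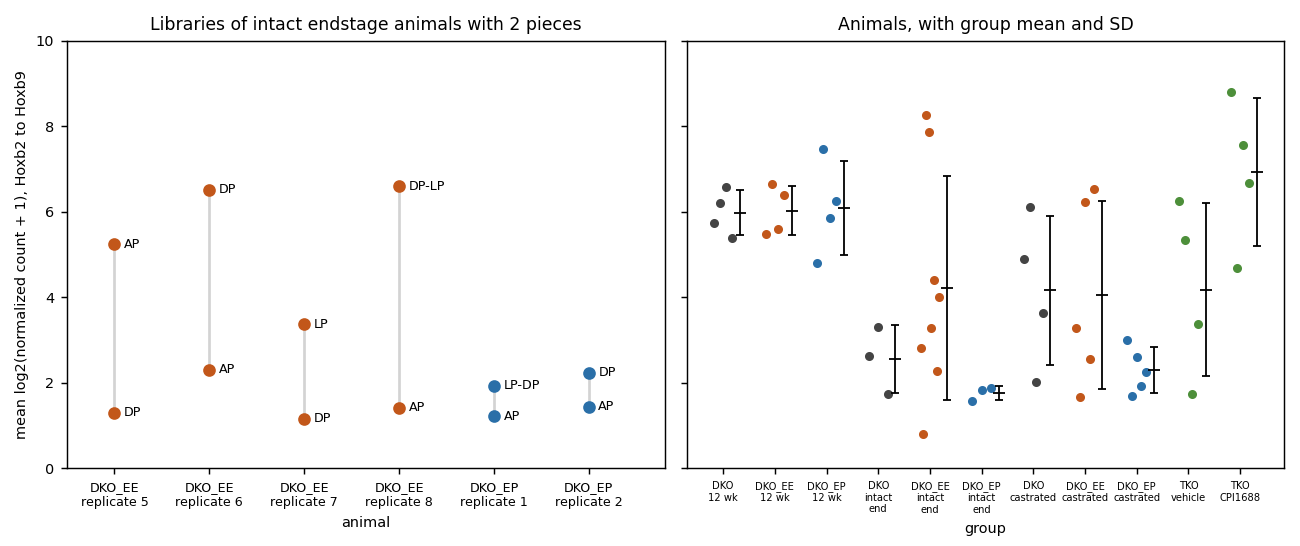
Mean log2 level of the 8 genes Hoxb2 to Hoxb9. Left, each point is a library of an intact endstage animal with 2 pieces, labelled with the piece named in its title; right, each point is an animal, with group mean and SD in black. DKO_EE replicates 5, 6 and 8 have one piece above 5 and one below 2.5, and the DKO_EP endstage animals stay at 3.01 or lower.

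Hoxc genes pattern the thoracic and lumbar trunk and the hindlimb, and were low in these tissues. At intact endstage the 6 Hoxc rows together had 2 to 34 reads in a DKO animal, 0 to 12 in DKO_EE and 0 to 3 in DKO_EP. In castrated DKO tumours 5 of the 6 had no read in any animal. At these counts single reads decide a value, and differences among endstage groups were not detectable at this depth. The calls from 12 weeks to endstage were Hoxc4, Hoxc6, Hoxc9 and Hoxc10 in DKO, Hoxc5 and Hoxc9 in DKO_EE, and Hoxc8 and Hoxc10 in DKO_EP. Alternatives ended the DKO calls of Hoxc6 and Hoxc9 in 5 of 14 cases each, and the DKO_EP call of Hoxc8 in 4 of 14. Hoxc5 spans Hoxc6, Hoxc8 and Hoxc9 and overlaps Hoxc10 in the annotation, so reads of these Hoxc genes are uncertain between them.

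Hoxc10, a factor of lumbar motor neurons and the hindlimb, had log2 levels of 6.07, 4.22, 3.98 and 6.12 in DKO, 3.23, 0, 4.44 and 1.42 in DKO_EE, and 1.19, 6.10, 0 and 6.19 in DKO_EP at 12 weeks. The 4 animals at 6.07 to 6.19 were those with Ttn over 1% of the reads, and the other 8 were at 0 to 4.44. Without those animals the fold change to endstage was -3.06 in DKO in place of -4.06, still past the test, and -0.34 in DKO_EP in place of -3.11 (adjusted p = 0.832). The count of Hox genes called lower went from 16 to 9 in DKO and from 14 to 7 in DKO_EP. Leaving those animals out left 2 DKO and 2 DKO_EP animals at 12 weeks. The share of all genes called with these fewer animals is not given here. The drop therefore cannot be read as particular to the Hox genes. Whether muscle in the sample carried the Hoxc RNA was not tested.

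**Figure D4:**
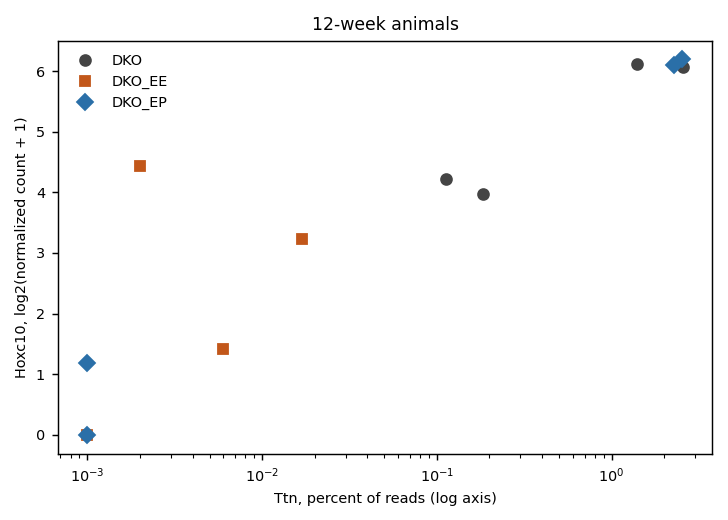
Log2 level of Hoxc10 (vertical axis) against the percent of reads in Ttn (horizontal log axis) in the 12 animals at 12 weeks; circles are DKO, squares DKO_EE and diamonds DKO_EP, with 1 DKO_EE and 1 DKO_EP animal at the same point at 0. The 4 animals above 1% Ttn sit at 6.07 to 6.19.

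The Ezh2 genotypes were compared within each setting. At 12 weeks limma called none of the 29 in DKO_EE or in DKO_EP against DKO, where 0% of all genes passed, and 1 and 0 had an unadjusted p under 0.05. At intact endstage none of the 29 passed in DKO_EE against DKO, where 1.66% of all genes were called, in DKO_EP against DKO, where 0% were, or in DKO_EE against DKO_EP, where 1.63% were. Unadjusted p-values under 0.05 numbered 2, 1 and 4, counts not set against all genes, and limma-voom called none of the 29 either. These 3 comparisons share animals. The Hoxb genes spread most: 8 of 10 had a higher mean in DKO_EE than in DKO, with a median log2 fold change of 1.26 against -0.03 over all genes, and 9 of 10 a higher mean in DKO_EE than in DKO_EP, with a median of 2.22 against 0.02.

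Hoxb8, a factor of myeloid progenitors and spinal circuits, shows the scatter behind those medians. It was at 1.48, 0.94 and 0 in the intact DKO tumours and at 0, 1.20 and 1.52 in DKO_EP, and it ran from 0 through 3.18 to 8.93 in DKO_EE. The ranges overlapped and the DKO_EE minus DKO difference of 3.29 did not pass (SE 1.63, adjusted p = 0.326). Hoxb13 had a difference of -1.95 (SE 1.10, adjusted p = 0.394). The smallest adjusted p among the 29 was 0.102, for Hoxc5 at -1.62, which had at most 3.52 in any animal.

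In castrated tumours, too, none of the 29 passed in DKO_EE against DKO, with 7.72% of all genes called, in DKO_EP against DKO, with 0.0302%, or in DKO_EE against DKO_EP, with 1.7%. Unadjusted p-values under 0.05 numbered 2, 3 and 5, counts not set against all genes, and limma-voom called none. Hoxa10 was at 7.35, 8.69, 2.75 and 7.66 in DKO, at 3.18, 7.07, 3.97, 2.21 and 4.99 in DKO_EE, and at 8.04, 7.07, 5.53, 7.91 and 7.58 in DKO_EP. Every DKO_EE animal but one was below every DKO_EP animal, and the difference was -2.95 (SE 1.09, adjusted p = 0.252). All 13 Hoxa genes had a lower mean in DKO_EE than in DKO_EP, with a median of -0.61 against 0 over all genes, and 8 of 10 Hoxb genes a higher one, with a median of 1.39.

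Hoxb13 was at 0 in 4 of the 5 castrated DKO_EE animals and at 1.26 in the fifth, and at 1.17, 6.68, 0 and 2.93 in castrated DKO (-2.45, SE 1.17, adjusted p = 0.213). Castrated DKO replicate 3 was low in most of the 29, with Hoxa9 at 2.41 where the other castrated DKO animals had 8.57 to 9. Without that animal, 2 of the 29 were called lower in DKO_EE than in DKO. A test of whether the DKO_EE difference was the same in castrated and intact mice called none of the 29, with 0.0119% of all genes called, and 2 had an unadjusted p under 0.05.

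Castrated and intact endstage tumours were compared within each genotype. In DKO, Hoxa13 alone of the 29 passed, where 13.9% of all genes were called. It was at 5.23, 8.20, 2.75 and 4.79 in the castrated animals and at 2.67, 3.47 and 0.92 in the intact ones, a difference of 2.89 (SE 1.01, adjusted p = 0.0482), and 1 castrated animal lay within the intact range. The highest value, 8.20, was in replicate 2, the animal with low neuroendocrine and high basal markers, which also had 7.45 for Hoxa11, 7.23 for Hoxa11os and 6.68 for Hoxb13, against at most 3.29, 3.89 and 2.93 in the other castrated DKO animals. Without replicate 2 the Hoxa13 difference was 1.90 and did not pass, and the call was lost in 10 of 15 alternatives. The intact DKO libraries had 7634326 to 7815568 reads and the castrated ones 5024409 to 6336499. The globin genes Hba-a1 and Hbb-bt were at 0 in the intact and not in the castrated DKO group. The part of these differences in the Hoxa13 call was not tested.

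In DKO_EE none of the 29 passed between castrated and intact tumours by limma or limma-voom, where 16.5% of all genes were called, and 2 had an unadjusted p under 0.05. Hoxa5, a factor of lung and vertebral development, had the smallest adjusted p at 0.0891 (log2 fold change 1.74, SE 0.70). In DKO_EP the opposite-strand transcript Hoxaas3 alone passed, where 9.87% of all genes were called. It was at 1.25, 3.06, 0, 2.98 and 2.23 in castrated and at 0 in all 3 intact animals, a difference of 1.90 (SE 0.61, adjusted p = 0.0378). The intact DKO_EP libraries had 14.225% to 21.551% of their reads in Lars2 and 4027297 to 5129603 reads, against at most 0.005% and 5323238 to 6662620 reads in the castrated ones. The globin genes Hba-a1 and Hbb-bt were at 0 in the intact and not in the castrated group, as they were in DKO and DKO_EE. The part of these differences in the call was not tested. Hoxaas3 overlaps Hoxa3 to Hoxa7 on the other strand, and the call was lost in 9 of 15 alternatives.

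Castrated TKO tumours addressed the effect of the Ezh2 inhibitor. None of the 29 passed between CPI1688 and vehicle by limma or limma-voom, and 0% of all 16512 genes did, while 9 of the 29 and 2.04% of all genes had an unadjusted p under 0.05. Of the Hoxb genes 10 of 10 had a higher mean with CPI1688, with a median log2 fold change of 2.18, and of the Hoxa genes 12 of 13, with a median of 1.38, against 0.02 over all genes. The 6 Hoxc genes were all lower in the mean, at -0.14 to -1.16, with 0 to 14 reads in all per vehicle animal and 0 to 3 per treated animal. Ezh2 itself had a difference of 0.41 (SE 0.36, adjusted p = 1), as RNA.

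Hoxb8 and Hoxb9 had the widest differences. Hoxb9 was at 6.28, 6.17, 1.10 and 0 with vehicle and at 10.06, 4.27, 9.17 and 7.55 with CPI1688, a difference of 4.38 (SE 1.81, adjusted p = 1). Hoxb8 was at 5.42, 5.38, 1.10 and 3.03 with vehicle and at 9.89, 5.08, 8.76 and 6.72 with CPI1688, a difference of 3.88 (SE 1.30, adjusted p = 1). In both genes 3 of the 4 treated animals were above every vehicle animal and replicate 2 was within the vehicle range. With Hoxb9 at 180 and Hoxb8 at 144 normalized counts per kilobase, CPI1688 was the group with the highest level of each gene.

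The middle Hoxa genes differed less but more evenly. Hoxa6 was at 3.38, 3.12, 2.47 and 2.53 with vehicle and at 5.68, 4.27, 4.61 and 5.16 with CPI1688, and Hoxa5 at 5.67, 5.77, 4.50 and 5.96 against 7.62, 6.85, 6.82 and 6.65. The differences were 2.06 (SE 0.48) and 1.51 (SE 0.41), both at adjusted p = 1. Hoxa7 was at 5.97, 6.11, 4.64 and 6.49 against 8.91, 7.88, 8.09 and 6.58, a difference of 2.06 (SE 0.57, adjusted p = 1). Hoxa6 and Hoxa7 were picked after their values were seen. Hoxa9 was at 7.76 to 9.30 and 8.30 to 9.80, with a difference of 0.33 (SE 0.40).

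Fibroblast markers were at 18.44, 15.11, 13.60 and 15.46 with vehicle and at 14.75, 15.52, 16.90 and 18.01 with CPI1688, and the neuroendocrine sum was lowest in vehicle replicate 1 at 10.79 and CPI1688 replicate 4 at 13.53. The treated animal with the highest Hoxb9, replicate 1, had the lowest fibroblast sum of its group. In the vehicle group the animal with the highest Hoxb9, also replicate 1, had the highest fibroblast sum. The median of the 29 was 1.38, 1.58 without vehicle replicate 1 and 1.30 without CPI1688 replicate 4. The part of fibroblast and neuroendocrine cells in the differences was not tested. Against castrated DKO, vehicle-treated TKO tumours differed in none of the 29 by limma or limma-voom, with 0.566% of all genes called and 1 of the 29 at an unadjusted p under 0.05, Hoxa11 at 2.16 (SE 1.01, adjusted p = 0.467). The TKO animals were younger, at 15 to 19 weeks against 39 to 99.

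**Figure D5:**
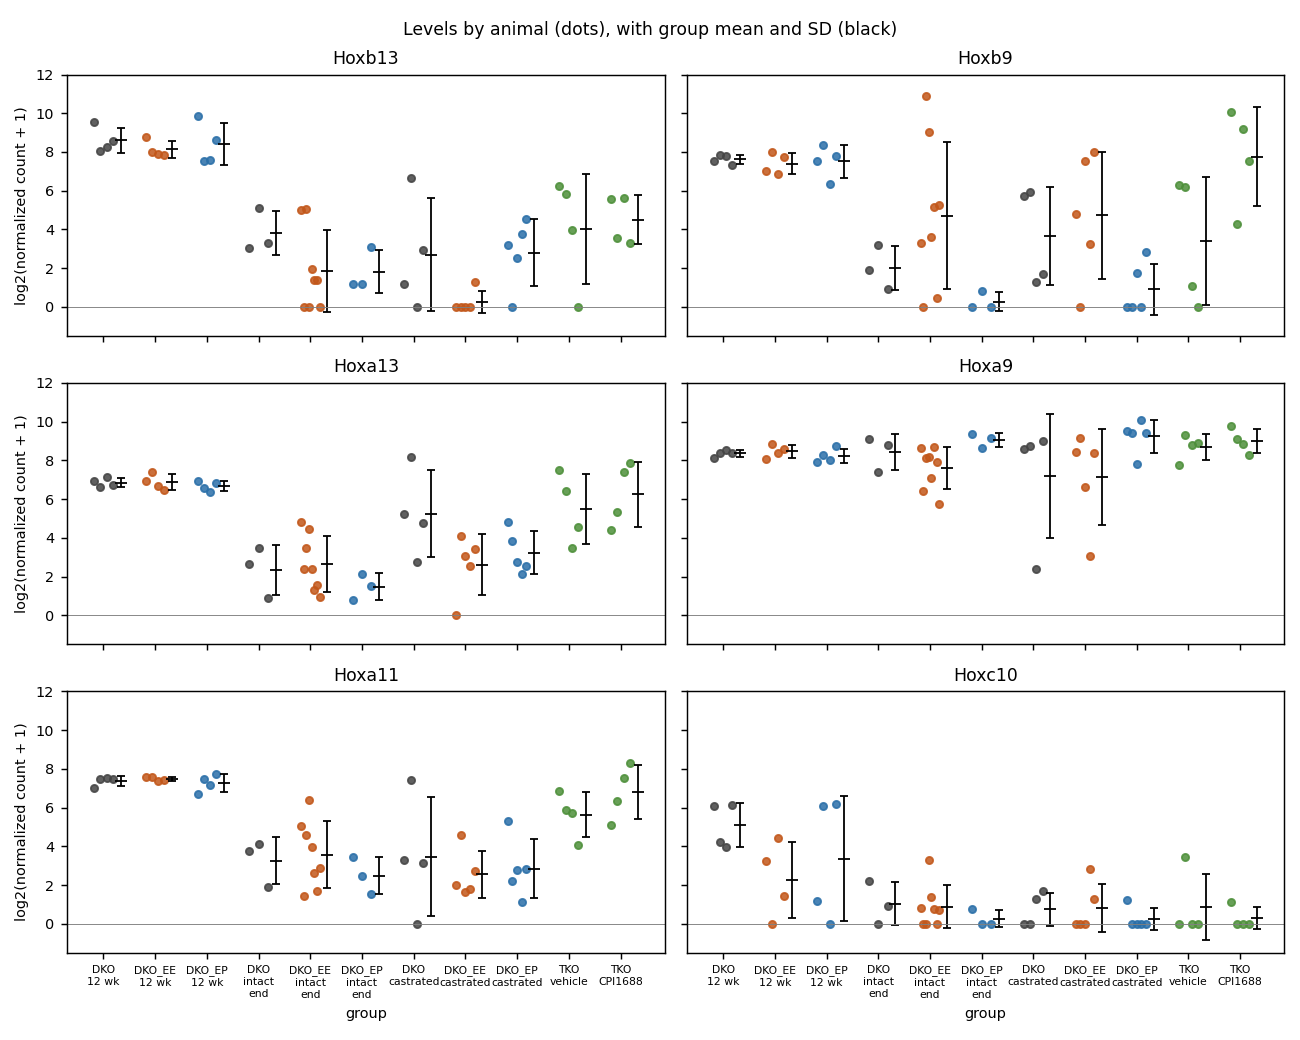
Log2 level (vertical axis) of 6 genes in each animal (points, replicates from left to right) of the 11 groups (horizontal axis), with group mean and SD in black; grey is DKO, orange DKO_EE, blue DKO_EP and green TKO. Hoxb13, Hoxa13 and Hoxa11 are high in the 12-week animals, Hoxa9 is high in nearly all groups, Hoxb9 spreads from 0 to 10.88 within intact DKO_EE, and Hoxc10 reaches 6 only at 12 weeks.

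Other genes of the Hox system were followed as lists. Of the 15 measured genes of the Hoxd cluster and other cluster transcripts, 5, 7 and 6 were lower and 0, 2 and 0 higher at intact endstage than at 12 weeks in DKO, DKO_EE and DKO_EP. Over all genes 18.7%, 27% and 22.9% were lower and 18%, 23.6% and 21.3% higher. These shares are the background of the list counts below from 12 weeks to intact endstage. Hoxd12 had fold changes of -3.52, -3.71 and -4.22, and Hoxd11 of -3.53, -3.25 and -5.18. In the castrated DKO_EE tumours against castrated DKO, where none of the Hoxa, Hoxb and Hoxc genes passed, Hoxd8 was higher by 4.33 (SE 0.60, adjusted p = 0.00137), Hoxd3 by 3.24 (SE 0.62, adjusted p = 0.00887), Hoxd9 by 2.62 (SE 0.73, adjusted p = 0.0454) and Hoxd1 by 2 (SE 0.56, adjusted p = 0.0461). These 4 were the genes of the list that passed, of 14 tested there, where 7.72% of all genes were called in either direction.

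The TALE homeodomain cofactors, which bind DNA beside Hox proteins, changed in both directions from 12 weeks to intact endstage, with 3 higher and 3 lower of 9 in DKO, 6 and 2 in DKO_EE, and 4 and 2 in DKO_EP, where 36.7%, 50.6% and 44.2% of all genes were called in either direction. Pknox1 rose by 1.56, 1.38 and 1.15 and Pbx4 by 2.46, 2.57 and 3.22. Of 11 Polycomb repressive complex 2 genes, 6, 5 and 6 rose and 2, 1 and 0 fell, beside the same shares of all genes. Phf19, an accessory subunit, rose by 3.12, 3.54 and 3.23, and Ezh2 by 1.21, 0.67 and 1.17. Polycomb repressive complex 1 had 7, 6 and 5 higher and 5, 5 and 3 lower of 19, with Phc3 at -1.71, -1.75 and -1.71.

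Of the MLL complex and the H3K27 demethylases, which act against Polycomb silencing, 2, 3 and 3 rose and 3, 3 and 3 fell of 12, near the 36.7%, 50.6% and 44.2% of all genes called in either direction. The demethylase gene Kdm6b fell by 1.90, 1.44 and 1.33, and the methyltransferase gene Kmt2d by 1.64, 1.06 and 0.83. Among 17 measured genes of Cdx and retinoid control, 0, 1 and 0 rose and 4, 6 and 6 fell, so the totals called are below those same shares of all genes. The retinoic acid receptor gene Rarg fell by 3.43, 3.29 and 4.08 and Rara by 1.82, 2.58 and 2.28. None of the measured genes of these lists passed with CPI1688, where 0% of all genes did.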

How the data were processed

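RNA was taken from mouse prostate tumour tissue and made into libraries with ribosomal RNA removed, per the labels' protocols. The submitters' processing notes name FastQC, STAR, RSEM, limma, DESeq2 and the builds GRCm38 and mm10, without versions or roles; strand use in counting is not given in the sources used here. The deposited table by the authors holds log2 values of 16772 genes. Taken as log2(normalized count + 1), 100% of the values gave whole reads within 0.05, and 8.92% were 0. Of 56 columns, 2 matched no sample analysed here and were not used. SKO samples were not analysed here.

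The pieces of an animal were averaged, and differences were fitted with limma 3.58.1 (R 4.3.3, trended variance, Benjamini-Hochberg adjustment over all genes with any spread). Genotypes were fitted within a setting, TKO alone, and age, castration and differences of differences over all 11 groups. Pieces were compared with animal as a block. The fits were tested on simulated data, with the spread between animals set in advance for all genes alike. Genes with few reads were not among those changed. The simulation therefore does not show which differences in the 29 genes could be detected. Replicates are animals, numbered in accession order. Gene positions are from GENCODE M21. Values of 2 genes, 1 of them a member, are not reported here, though counts over members and lists include them. The 29 members and the lists were chosen with earlier results of these data known. Named genes follow a rule: in each comparison the members called, or the 8 with the smallest adjusted p where over 8 were called, the members with the largest and smallest fold change, a fixed set (Hoxb13, Hoxa13, Hoxa10, Hoxa9, Hoxb6, Hoxb8, Hoxc6, Hoxc8, Hoxc10), the opposite-strand transcripts, Ezh2, and up to 4 genes per list. Other members given with values, such as Hoxa2, Hoxa6 and Hoxa7, were chosen after their values were seen. Alternatives were another filter, offset, scaling, weighting and tool, age, single libraries and leaving out each animal. Python 3.11.15, pandas 2.3.3, numpy 2.4.6 and matplotlib 3.10.9 were used.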

Additional observations from a re-analysis of the deposited data

Results flagged for a closer look

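In 9 of 181 sets of a gene and a group of 4 to 8 animals with at least 10 reads in some animal, one animal lay far from the rest by Dixon's criterion, and chance gives about 1 in 20. Castrated DKO replicate 3 was low in Hoxa4 at 0 (others 3.46 to 4.13), in Hoxa6 at 1.95 (others 3.62 to 3.88) and in Hoxa9 at 2.41 (others 8.57 to 9). Castrated DKO replicate 2 was high in Hoxa11os at 7.23 (others 3.30 to 3.89). Castrated DKO_EP replicate 3 was low in Hoxa5 at 2.77 (others 6.46 to 7.56). Among 12-week animals, DKO replicate 4 was low in Hoxa4 at 2.77 (others 3.98 to 4.18) and in Hoxb4 at 5.30 (others 6.79 to 7.08). DKO replicate 1 was low in Hoxa11 at 7 (others 7.47 to 7.54), and DKO_EE replicate 1 was high in Hoxb13 at 8.78 (others 7.85 to 8).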

How the results depend on the processing

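From 12 weeks to intact endstage, 16 of the 29 genes were called in DKO, 10 in DKO_EE and 14 in DKO_EP. With the lowest 25% of genes left out it was 9, 6 and 9, where fewer of the 29 were tested. With 12-week animals of at most 1% Ttn, an alternative chosen after seeing the data, it was 9 in DKO and 7 in DKO_EP, with fewer animals. Leaving out one animal gave 9 to 15, 8 to 13 and 10 to 18. The shares of all genes called under these alternatives are not given here. Hoxa11, Hoxa11os and Hoxa13 passed in all 3 genotypes under each alternative run, and Hoxb13 under each but the filter, which left it untested. Between castrated and intact DKO the count of 1 was 0 with an offset of 10, with age as a covariate, with the first library of each animal, by limma-voom and with only the groups compared, 3 with array weights, and 0 to 2 without one animal. In DKO_EP the count of 1 was 0 with the filter, with age, by limma-voom and with only the groups compared, and 0 to 1 without one animal; in DKO_EE it was 0 to 2 without one animal. Castrated DKO_EE against DKO_EP gave 3 with array weights and 1 with all 11 groups in one fit, in place of 0. DKO_EE against DKO gave 0 to 1 at intact endstage and 0 to 2 after castration without one animal. The cause of these shifts was not tested unless given. AP against DP called 0 with the animal as a replicate block and 0 with no replicate block. No paired analysis was possible because replicate numbers follow accession order and pair no animals across groups. Genes with few reads, among them the Hoxc genes at endstage, are limited by depth.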
